A study of Rattus norvegicus with 24 samples.

Results

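The respiratory chain and ATP synthase were followed in rat heart muscle through 49 nuclear genes that encode subunits of complexes I to V, with cytochrome c counted beside complex III. Members were taken by symbol, through every array probe whose transcript accession belongs to one of these genes in the rat RefSeq annotation. Of the 49 genes, 45 had a named probe, and these 45 were all among the 12894 genes tested. Ndufa8, Ndufs6, Cyc1 and Cox7a1 had no named probe and were not analysed here. The 45 genes comprised 20 of complex I, 4 of complex II, 7 of complex III with cytochrome c, 7 of complex IV and 7 of complex V.

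Heart muscle RNA of 24 rats was hybridised to single-colour Agilent gene expression arrays, 1 rat per array, with 2 males and 2 females in each of 6 groups of 4. Rats of the Jiaji, Neiguan, Yanglingquan and Quchi groups received 7 days of acupuncture at the point that names the group, and the left anterior descending coronary artery was then tied off. IRI rats (ischaemia-reperfusion injury) had the ligation without acupuncture. For sham rats the protocol names neither ligation nor acupuncture. All 4 acupuncture groups therefore carry the injury as well, and no group analysed here had acupuncture without ligation or needling away from an acupoint. The labels name no strain, age, reperfusion time or part of the heart. Beyond sex, the labels tell the 4 arrays of a group apart only by sample name. A p-value therefore weighs a difference against the spread of these arrays left after sex, which may be partly technical.

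In the inner mitochondrial membrane, complexes I and II pass electrons from NADH and succinate to ubiquinone, complex III passes them on to cytochrome c, and complex IV to oxygen. Complexes I, III and IV pump protons as they do so, and complex V uses the returning protons to make ATP. A beating heart depends on this chain for nearly all of its ATP, and complexes I and III are well-known sites of electron leak when blood flow returns after ischaemia.

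A gene's level is given as log2 of its probe's processed signal minus the 75th percentile of that array. Differences between groups are on the same log2 scale, from a linear model with group and sex across all genes (limma). A gene is called where its Benjamini-Hochberg adjusted p over all 12894 genes was below 0.05. Errors of differences are standard errors with 4 arrays per group, and the number of arrays limits the precision.

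The arrays carried the pattern of heart muscle: 16 of 18 cardiomyocyte markers were tested, and myoglobin (Mb), troponin T (Tnnt2), cardiac actin (Actc1) and alpha myosin (Myh6) were among the brightest genes. Yanglingquan arrays had 71.1 to 76.3% of their probes well above background and the other 5 groups 75.6 to 88.7%, with the Quchi and Neiguan ranges reaching into that of Yanglingquan. Each group was scanned apart from the others, except that Quchi replicate 1 was scanned apart from Quchi replicates 2 to 4, so scan and group cannot be told apart. In bulk tissue, fewer cells of a type and less RNA per cell cannot be told apart.

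The subunit genes were among the brightest on the arrays. Their mean level over the 24 arrays had a median of 5.77 and ranged from 1.18 to 7.12, and 42 of the 45 fell in the top one of 20 brightness classes. The exceptions were Ndufa2, Ndufs8 and Ndufa10, all of complex I. By complex, the median of these mean levels was 5.32 for complex I, 5.77 for complex II, 5.36 for complex III, 6.03 for complex IV and 6.38 for complex V, a description of probe signals and not of molar amounts. All but Ndufa9 were well above background on all 24 arrays. Ndufa9 had 23 values, because its spot on Yanglingquan replicate 4 was a population outlier and was left out of the fit.

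Rats of 1 group differed little in these genes. The median SD over the members was 0.14 in Jiaji, 0.15 in Neiguan, 0.20 in Yanglingquan, 0.19 in Quchi, 0.15 in IRI and 0.12 in sham hearts. Uqcrq, a small subunit of complex III, had the highest SD of the members in 4 of the 6 groups, among them 0.51 in Jiaji and 0.49 in sham hearts. In Quchi hearts the highest SD was that of Ndufs3 (0.41) and in IRI hearts that of Ndufa10 (0.26).

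**Figure D1:**
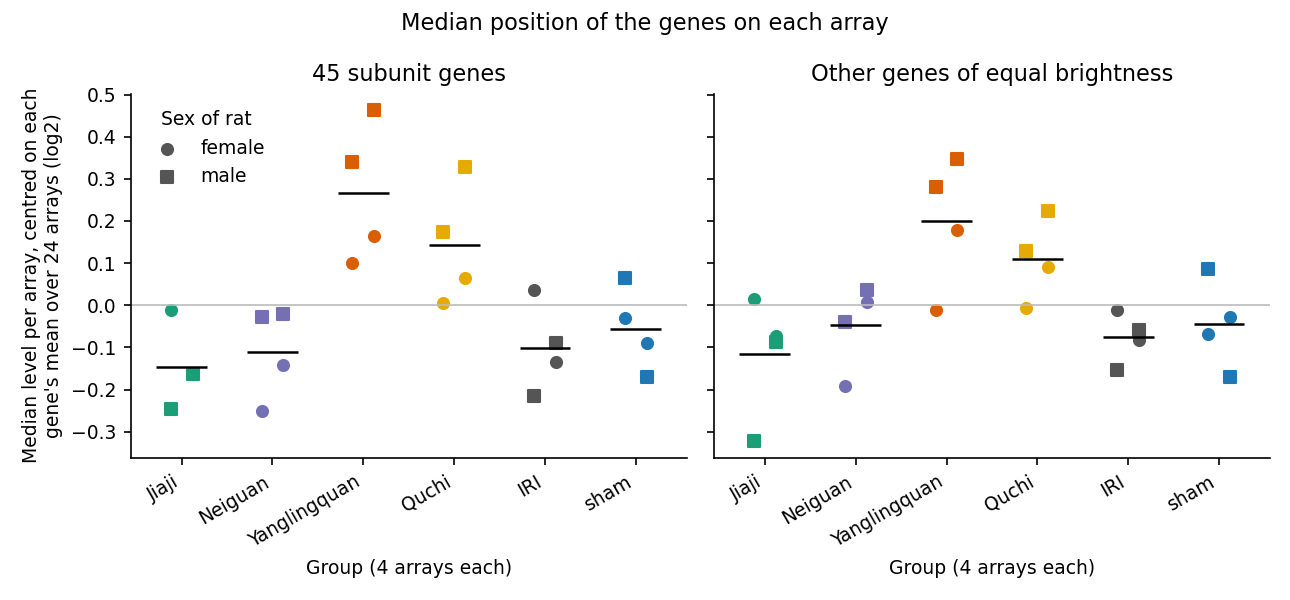
Each point is 1 array, placed by the median over genes of the level minus the gene's mean over all 24 arrays (log2, y axis), for the 45 subunit genes on the left and other genes of equal brightness on the right. Circles are females, squares are males, and bars are group means. For the subunit genes the 4 Yanglingquan arrays sat at 0.34, 0.46, 0.10 and 0.16, above all 4 IRI arrays, and at equal brightness at 0.28, 0.35, -0.011 and 0.18.

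The first comparison asked what the injury alone did. No subunit gene was called in IRI against sham hearts by limma, while 5.75% of all genes tested were called (4.72% higher and 1.03% lower), and 3 members had an unadjusted p under 0.05. The 45 differences had a median of -0.043, close to the -0.034 of all genes and the -0.031 of the classes of equal brightness. By complex the medians were -0.038 for complex I, -0.034 for II, -0.0037 for III, -0.12 for IV and -0.087 for V. For 41 of the 45 genes the 95% interval of the difference lay within 0.5 of 0 on the log2 scale.

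In 3 genes the 4 IRI values lay wholly below the 4 sham values, none of them called. The share of all genes without such overlap is not given here. Ndufs8, which carries iron-sulphur clusters in the peripheral arm of complex I, was at 1.55, 1.50, 1.42 and 1.67 in IRI hearts and at 1.81, 1.80, 1.78 and 1.77 in sham hearts (difference -0.25 ± 0.11, adjusted p 0.193, limma). Ndufa2, an accessory subunit of the same arm, was at 0.97, 0.95, 1.22 and 1.33 in IRI hearts and at 1.59, 1.37, 1.47 and 1.58 in sham hearts (-0.39 ± 0.15, adjusted p 0.154, limma). Cox6c, a nuclear subunit of cytochrome c oxidase, differed by -0.28 with an adjusted p of 0.321 (limma).

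Uqcrq went the other way and had the largest difference of this comparison, 0.78 ± 0.26 with a 95% interval of 0.23 to 1.33 and an adjusted p of 0.0933 (limma). Its levels were 4.24, 4.48, 4.52 and 4.15 in IRI hearts and 4.30, 3.26, 3.35 and 3.36 in sham hearts. Sham replicate 1 lay among the injured hearts and the other 3 sham hearts lay below all of them. Without sham replicate 1 the difference was 1.06 with an adjusted p of 0.0169 (limma).

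The same sham array decided Uqcrq in the acupuncture groups. Uqcrq lay at 3.57, 4.14, 4.80 and 4.39 in Jiaji hearts, at 4.66, 3.90, 4.45 and 4.45 in Neiguan hearts, at 3.71, 4.71, 4.45 and 4.78 in Yanglingquan hearts and at 4.11, 4.06, 4.15 and 4.44 in Quchi hearts. Every injured heart, with or without acupuncture, was above sham replicates 2 to 4. Against all 4 sham hearts, Uqcrq was called in Neiguan (0.80, adjusted p 0.0386) and Yanglingquan hearts (0.84, adjusted p 0.0399) and not in Jiaji (0.66, adjusted p 0.0752) or Quchi hearts (0.62, adjusted p 0.0967), all by limma. Without sham replicate 1 the 4 differences were 0.93, 1.07, 1.12 and 0.90 for Jiaji, Neiguan, Yanglingquan and Quchi, with adjusted p from 0.00496 to 0.0154 (limma). These comparisons share the sham arrays, and leaving 1 out was chosen after its value was seen.

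Under the 75th percentile scaling, pretreatment at Yanglingquan gave the broadest difference, and its direction turned under quantile normalization and in the authors' values, where the median of the members was -0.046. Of the 45 subunit genes, 20 were higher in Yanglingquan than in IRI hearts and none was lower, against 4.09% of all genes called higher, 8.03% called lower and 12.1% called in either direction. The median difference was 0.34, with a range of -0.064 to 0.67, and 43 of the 45 differences were above 0. In 18 genes the 4 Yanglingquan values lay wholly above the 4 IRI values. The share of all genes without overlap is not given here. The calls were spread over the chain: 9 of 20 in complex I, 1 of 4 in complex II, 3 of 7 in complex III, 4 of 7 in complex IV and 3 of 7 in complex V, with medians of 0.34, 0.29, 0.34, 0.41 and 0.34. Leaving out IRI replicate 1 or Yanglingquan replicate 1 gave 10 called members, and leaving out IRI replicate 3 or 4 or Yanglingquan replicate 2 gave 11.

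In complex I the called genes of smallest p were Ndufv1, Ndufb8, Ndufb9 and Ndufa5. Ndufv1, which binds NADH and its flavin at the entry of the chain, was at 6.72, 6.99, 6.50 and 6.77 in Yanglingquan hearts and at 6.11, 6.16, 6.11 and 6.21 in IRI hearts (0.60 ± 0.12, adjusted p 0.00253, limma). Ndufb8, an accessory subunit of the membrane arm often used as a protein marker of assembled complex I, was at 6.68, 6.80, 6.37 and 6.47 in Yanglingquan hearts and at 5.91, 6.17, 5.98 and 6.02 in IRI hearts (0.56 ± 0.12, adjusted p 0.00374, limma). Ndufb9, another membrane arm subunit, was at 6.65, 6.84, 6.46 and 6.50 in Yanglingquan hearts and at 5.85, 6.19, 6.10 and 6.19 in IRI hearts (0.53 ± 0.11, adjusted p 0.00458, limma). Groups did not overlap for any of the 3.

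Ndufa5, an accessory subunit of the peripheral arm, had the largest difference within complex I at 0.63 ± 0.15 (adjusted p 0.00844, limma), with 7.43, 7.61, 7.15 and 7.53 in Yanglingquan hearts against 6.63, 6.99, 6.66 and 6.91 in IRI hearts. Ndufa4, first described with complex I and now placed in complex IV, was also higher, by 0.59 (adjusted p 0.00895, limma). The other 4 called genes of the complex, Ndufb5, Ndufv2, Ndufa6 and Ndufb6, were 0.34 to 0.46 higher with adjusted p from 0.0349 to 0.0471 (limma). In complex I, 11 members were not called, among them Ndufs8 at -0.064, Ndufa2 at -0.0090, Ndufs4 at 0.0089 and Ndufa9 at 0.040. Ndufs8 and Ndufa2 were the members with a negative difference, and they are also the dimmest members.

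Succinate dehydrogenase, which is complex II and also an enzyme of the tricarboxylic acid cycle, had differences of 0.27 to 0.39 in its 4 genes. Sdha, its flavoprotein, was the called one, with 6.29, 6.19, 6.22 and 6.36 in Yanglingquan hearts and 5.71, 6.19, 5.93 and 5.68 in IRI hearts (0.39 ± 0.11, adjusted p 0.0234, limma). The lowest Yanglingquan heart and IRI replicate 2 were both at 6.19 to 2 decimals, so the gap between the groups was very small.

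Complex III held the largest difference of all members. Uqcrb, a small subunit at the ubiquinone site, was at 7.53, 7.48, 7.29 and 7.40 in Yanglingquan hearts and at 6.67, 6.90, 6.70 and 6.73 in IRI hearts, 1.59-fold higher (0.67 ± 0.13, adjusted p 0.0016, limma). All 4 Yanglingquan hearts exceeded all 4 IRI hearts. Uqcrc1, a core protein, was 0.36 higher (adjusted p 0.0486), and Uqcrfs1, the Rieske iron-sulphur protein that hands electrons towards cytochrome c, was 0.29 higher (adjusted p 0.0408, both limma). Cytochrome c itself (Cycs) differed by 0.34 ± 0.17 and was not called (adjusted p 0.218, limma).

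Within complex IV, cytochrome c oxidase, Cox6a2, the heart and skeletal muscle form of subunit VIa, was at 7.53, 7.63, 7.22 and 7.39 in Yanglingquan hearts and at 6.86, 6.93, 6.86 and 6.92 in IRI hearts (0.55 ± 0.13, adjusted p 0.00694, limma). Cox4i1, a regulatory subunit found in nearly all tissues, was at 7.24, 7.50, 7.03 and 7.21 in Yanglingquan hearts and at 6.64, 6.70, 6.74 and 6.85 in IRI hearts (0.51 ± 0.12, adjusted p 0.00778, limma). Neither gene overlapped between the groups. Cox5b and Cox7b, nuclear subunits that surround the catalytic core, were 0.47 and 0.41 higher with adjusted p of 0.024 and 0.0388 (limma).

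In complex V, Atp5f1a, the alpha subunit of the catalytic head, had the smallest p of all members. It was at 7.15, 7.41, 6.95 and 7.16 in Yanglingquan hearts and at 6.48, 6.60, 6.58 and 6.59 in IRI hearts (0.61 ± 0.11, adjusted p 0.000929, limma). Atp5pb and Atp5po, which form the stalk that holds the head to the membrane part, were 0.55 and 0.47 higher (adjusted p 0.00302 and 0.0259, limma). Atp5f1b, the beta subunit that carries the catalytic sites, was not called.

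**Figure D2:**
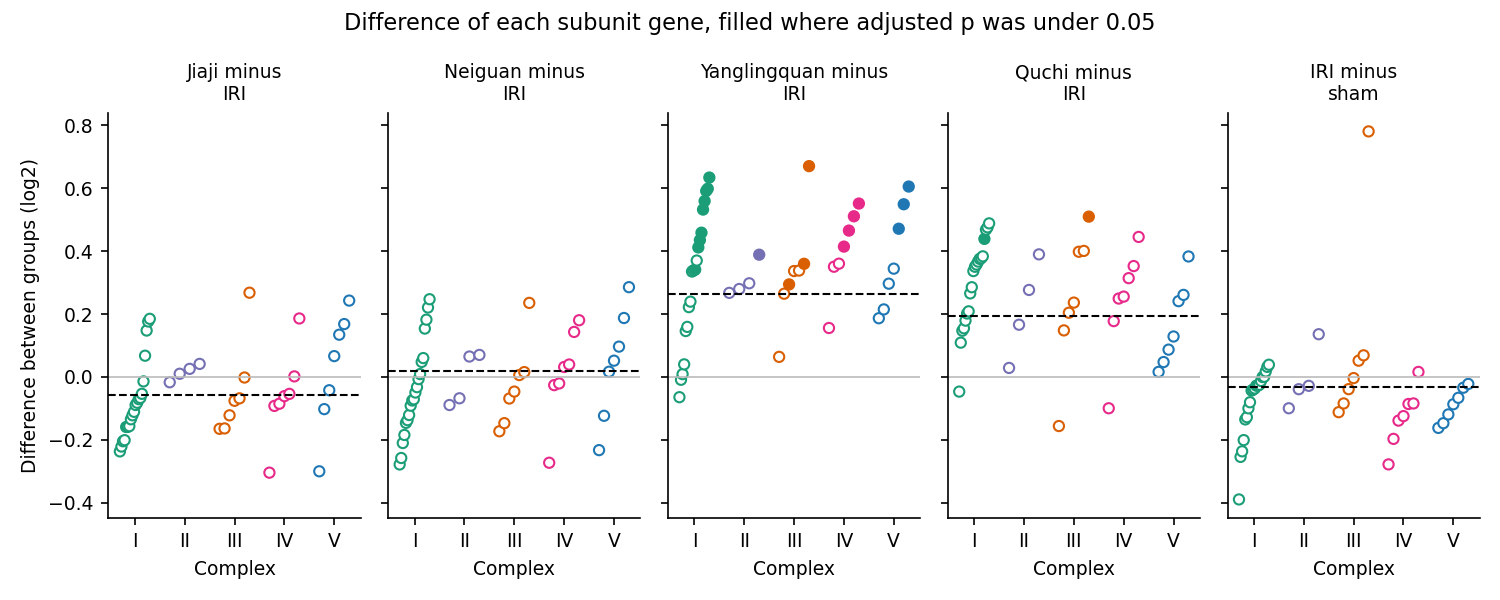
Each point is 1 subunit gene, placed by its difference between groups (log2, y axis) and grouped by complex, in each of 5 comparisons. Filled points had an adjusted p under 0.05 and the dashed line is the median of other genes of equal brightness, which was 0.26 in Yanglingquan against IRI hearts and -0.031 in IRI against sham hearts. Filled points appear in all 5 complexes in Yanglingquan against IRI hearts and for 2 genes in Quchi against IRI hearts.

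Bright genes as a whole moved the same way in this comparison. Over the 20 brightness classes of all genes tested, the median difference between Yanglingquan and IRI hearts ran from -0.79 in the dimmest class to 0.26 in the brightest. Within the brightest class 24.4% of the 578 genes that encode no subunit were called higher. Subtracting the median of its own class from each member left a median of 0.077, with 34 members above their class and 11 below. With 10 classes the remainder was 0.17 and with 40 classes -0.019.

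A closer match by level removed the remainder. Against the 50 genes outside the list nearest in mean level to each member, the median remainder was 0.0013, with 23 members above their neighbours' median and 22 below. On average 40.5% of those neighbours were called higher, against 20 of the 45 members. The neighbours had a median difference of 0.40, against 0.34 for the subunit genes. Quartiles of the differences were 0.24 and 0.47 for the members, and 0.098 and 0.43 for the brightest class.

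**Figure D3:**
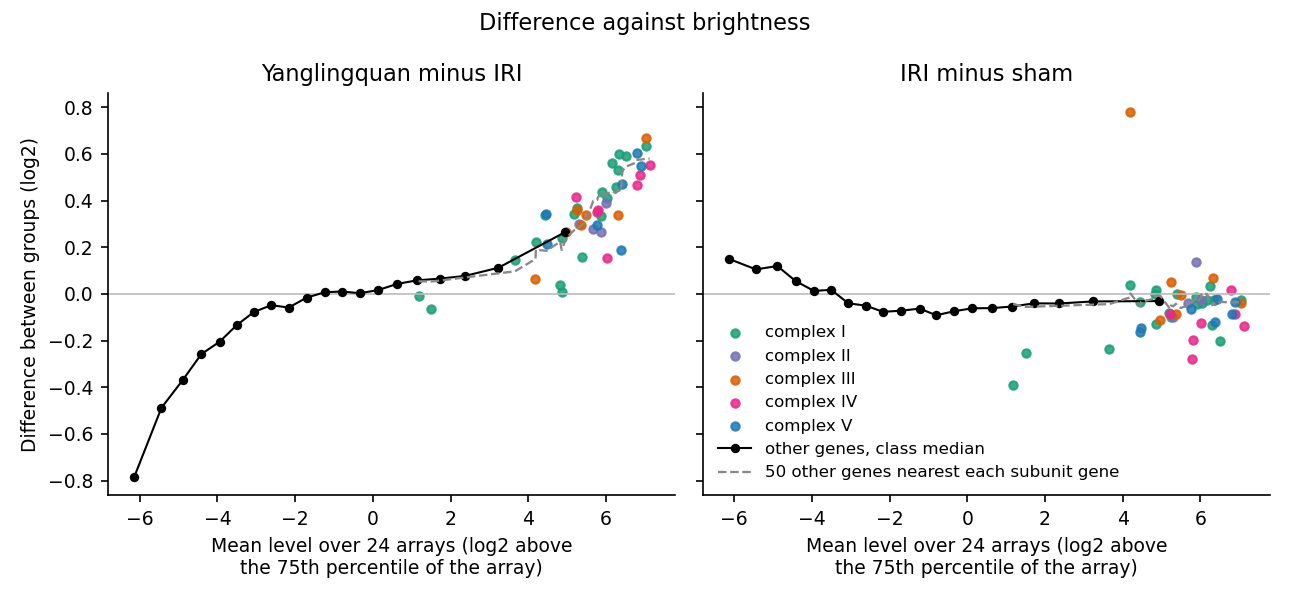
Differences between groups (log2, y axis) are plotted against mean level over 24 arrays (log2 above the array's 75th percentile, x axis) for the subunit genes, coloured by complex, in Yanglingquan minus IRI hearts on the left and IRI minus sham hearts on the right. The solid line joins the medians of the 20 brightness classes and the dashed line the medians of the 50 nearest genes. On the left both climb with the level, the solid line to 0.26 in the brightest class, and the members scatter about the dashed line.

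Cardiomyocyte markers moved in the same direction on these arrays. Of 16 tested, 11 were higher in Yanglingquan than in IRI hearts and none was lower, with a median of 0.56. Of all genes 4.09% were called higher, and of the 50 genes nearest each subunit gene 40.5% on average. Those nearest genes match the subunit genes in level and not the markers. Several markers, such as Mb at 7.78 and Tnnt2 at 7.71, were brighter than any subunit gene. A match to the markers is not given here. The values of the markers under the other scalings are not given here. Ventricular myosin light chain Myl3 was 0.80 higher and troponin I (Tnni3) 0.68 higher. The summed signal of the 16 genes, in multiples of the 75th percentile, was 2082 to 2871 in Yanglingquan hearts, 1488 to 1647 in IRI hearts and 1505 to 1894 in sham hearts. Their part in the difference of the subunit genes was not tested.

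Scaling decided the sign for most of these genes. The 75th percentile gave 20 higher and 0 lower, background correction by normexp 20 and 0, and scaling to the array median 22 and 0. Cyclic loess gave 4 higher and 0 lower with a median of 0.071. Quantile normalization and the authors' own processed values each gave 0 higher and 1 lower with a median of -0.046. In the order named, 12.1%, 5.04%, 13.1%, 9.28%, 6.61% and 6.65% of all genes were called in either direction. Only 14 of the 45 genes kept the sign of their difference under all 6 scalings, and none was called under all 6.

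**Figure D4:**
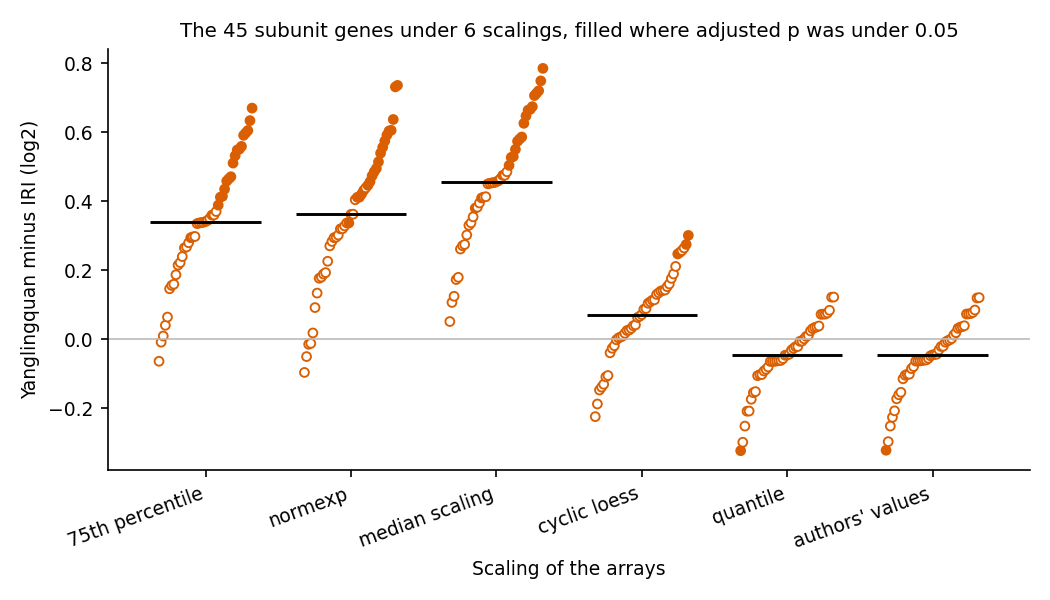
Differences of the 45 subunit genes in Yanglingquan minus IRI hearts (log2, y axis) are shown under 6 scalings of the arrays, 1 point per gene in order of size, filled where the adjusted p was under 0.05, with the median as a bar. The medians ran from 0.46 under median scaling to -0.046 under quantile normalization and in the authors' values.

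The 4 genes called under cyclic loess were also called by the 75th percentile: Uqcrb at 0.30, Ndufv1 at 0.27, Atp5f1a at 0.25 and Ndufb8 at 0.25. The gene called lower by quantile normalization was Atp5mc1, the ring subunit of the proton channel, at -0.32.

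Against sham hearts, 16 subunit genes were higher in Yanglingquan hearts and none was lower, against 5.79% of all genes called higher, 7.21% called lower and 13% called in either direction. The median difference was 0.32, which left 0.082 after subtracting the class of equal brightness and -0.019 after subtracting the 50 nearest genes. On average 36.9% of those nearest genes were called higher, against 16 of the 45 members. Under quantile normalization the median was -0.058. Ndufv1 was 0.57 higher (adjusted p 0.0037), Uqcrb 0.63 higher (adjusted p 0.00271) and Atp5f1a 0.52 higher (adjusted p 0.00327), all by limma. Sdhc, one of the membrane anchors of complex II, was called here at 0.40 (adjusted p 0.0228, limma) and not against IRI hearts. The member furthest in the other direction was Ndufa2 at -0.40, which was not called. The 2 comparisons share the Yanglingquan arrays, and no member was called against sham under all 6 scalings. The count fell to 5 without sham replicate 2 and to 8 to 10 without sham replicate 3 or 4 or Yanglingquan replicate 1, 2 or 4.

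Quchi hearts had 2 called members against IRI hearts, both higher, where 2.39% of all genes tested were higher, 1.05% lower and 3.44% in either direction. Uqcrb was at 7.22, 7.58, 7.03 and 7.22 in Quchi hearts, above its 4 IRI values of 6.67 to 6.90 (0.51 ± 0.13, adjusted p 0.0274, limma). Ndufb8 was at 6.48, 6.64, 6.29 and 6.42 in Quchi hearts, above its 4 IRI values of 5.91 to 6.17 (0.44 ± 0.12, adjusted p 0.0397, limma). The median of all 45 members was 0.26, with 42 above 0 and 25 at an unadjusted p under 0.05. Genes of equal brightness had a median of 0.19 in the same comparison, which left 0.072, and the 50 nearest genes one of 0.24, which left 0.033. Under quantile normalization the median of the members was -0.020. Uqcrq had the lowest difference at -0.16 and was not called. Leaving out IRI replicate 2 gave 12 called members, Quchi replicate 4 gave 7 and Jiaji replicate 1 gave 4. Leaving out sham replicate 3 or Jiaji replicate 3 gave 1, and any of IRI replicates 1, 3 and 4 or Quchi replicate 2 gave 0. No member was called under all 6 scalings.

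Against sham hearts, 8 members were higher and 1 was lower in Quchi hearts, where 11.8% of all genes tested were higher, 9.26% lower and 21.1% in either direction. Uqcrb was 0.47 higher (adjusted p 0.0117), Ndufb8 0.41 higher (adjusted p 0.0158), Ndufb10 0.46 higher (adjusted p 0.0189) and Sdha 0.36 higher (adjusted p 0.0224), all by limma. Ndufa5, Uqcrh, Atp5pb and Cox7b were 0.35 to 0.44 higher. Ndufs8 was lower by the same test (-0.30 ± 0.11, adjusted p 0.0471). The share of 9 of 45 was near the background share, and the median of 0.20 left 0.034 after subtracting the class of equal brightness and -0.0068 after subtracting the 50 nearest genes. Under quantile normalization the median was -0.049. Without sham replicate 2 or Quchi replicate 2 the count was 1, without sham replicate 4 it was 3, and without sham replicate 3 or Quchi replicate 1 it was 5.

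No member was called in Jiaji against IRI hearts by limma, where 10.2% of all genes passed (8.39% above and 1.8% below IRI), and 4 members had an unadjusted p under 0.05. In Neiguan against IRI hearts none was called either, where 5.63% of all genes passed (4.41% above and 1.23% below IRI), and 2 members had an unadjusted p under 0.05. The medians were -0.068 for Jiaji and -0.021 for Neiguan. The 50 genes nearest each member in level had medians of 0.046 for Jiaji and 0.079 for Neiguan. Uqcrb, at 6.77, 7.21, 7.16 and 6.94 in Jiaji hearts, had the largest positive difference for Jiaji, 0.27 (adjusted p 0.2, limma). Atp5f1a had the largest positive difference for Neiguan, 0.29 (adjusted p 0.129, limma), with 6.87, 6.66, 7.01 and 6.85 in Neiguan hearts, above all 4 IRI values. Cox8b, the heart and skeletal muscle form of subunit VIII of complex IV, differed by -0.30 between Jiaji and IRI hearts without overlap (adjusted p 0.15, limma), and was called lower under 4 of the 6 scalings (differences of -0.52 to -0.26).

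Against sham hearts, 4 members were lower in Jiaji hearts and none was higher, where 17.5% of all genes tested were higher, 6.55% lower and 24% in either direction. They were Cox8b, Ndufs8, Atp5mc1 and Ndufa2. A count of 4 of 45 is near the background share. These 4 were called under all 6 scalings and with any 1 array left out. Such refits reuse the same arrays and do not bear on chance. The share of all genes as stable as these is not given here. Without sham replicate 2 the count was 7. Cox8b was at 5.25, 5.59, 5.40 and 5.52 in Jiaji hearts and at 6.15, 5.86, 5.82 and 5.91 in sham hearts (-0.50 ± 0.13, adjusted p 0.00725, limma), with a range of -0.78 to -0.45 over the scalings. Ndufs8 was at 1.31, 1.51, 1.19 and 1.33 in Jiaji hearts and at 1.81, 1.80, 1.78 and 1.77 in sham hearts (-0.46 ± 0.11, adjusted p 0.00338, limma), with a range of -0.73 to -0.35. In both genes every Jiaji heart lay below every sham heart.

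Atp5mc1 was at 6.08, 6.19, 6.05 and 6.08 in Jiaji hearts and at 6.66, 6.44, 6.44 and 6.55 in sham hearts (-0.42 ± 0.11, adjusted p 0.00866, limma), with a range of -0.70 to -0.39 over the scalings. Ndufa2 was at 0.86, 0.97, 1.02 and 0.99 in Jiaji hearts and at 1.59, 1.37, 1.47 and 1.58 in sham hearts (-0.55 ± 0.15, adjusted p 0.0114, limma), with a range of -0.83 to -0.45. Neither overlapped between the groups. Atp5mc1 in IRI hearts was at 6.35, 6.30, 6.33 and 6.63, above all 4 Jiaji values, and Ndufa2 in IRI hearts overlapped the Jiaji values.

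Neiguan hearts shared Cox8b and Ndufs8 with Jiaji. Of the 45 members 2 were lower than in sham hearts and 1, Uqcrq, was higher, where 12.5% of all genes tested were higher, 7.39% lower and 19.9% in either direction. Cox8b was at 5.57, 5.16, 5.68 and 5.47 in Neiguan hearts, below all 4 sham values (-0.47 ± 0.13, adjusted p 0.0139, limma). Ndufs8 was at 1.53, 1.33, 1.44 and 1.36 in Neiguan hearts, again below all 4 sham values (-0.38 ± 0.11, adjusted p 0.016, limma). Both were called under all 6 scalings, with ranges of -0.61 to -0.46 for Cox8b and -0.52 to -0.30 for Ndufs8. The Jiaji and Neiguan comparisons share the sham arrays. Without sham replicate 3 the Neiguan count was 1 and Ndufs8 lost its call (adjusted p 0.0519, limma), and without Jiaji replicate 1 or Quchi replicate 4 the count was 5. The members as a set had a median of -0.095 in Neiguan hearts, with a remainder of -0.084 after subtracting the class of equal brightness and of -0.13 after subtracting the 50 nearest genes. In all, 37 of the 45 lay below their neighbours. This was not particular to Neiguan against sham hearts. In Jiaji against sham hearts 34 lay below (remainder -0.068), in Jiaji against IRI 31 (-0.060) and in Neiguan against IRI 34 (-0.078).

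Cox8b was at 6.18, 6.35, 5.85 and 6.03 in Yanglingquan hearts and at 6.01, 6.37, 5.86 and 6.13 in Quchi hearts, against 5.64, 5.89, 5.66 and 5.77 in IRI hearts. Ndufs8, by comparison, was at 1.41, 1.81, 1.45 and 1.21 in Yanglingquan hearts and at 1.49, 1.72, 1.42 and 1.33 in Quchi hearts, and thus mostly below sham in all injured groups. Cox8b in all 8 Yanglingquan and Quchi hearts exceeded all 8 Jiaji and Neiguan hearts.

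**Figure D5:**
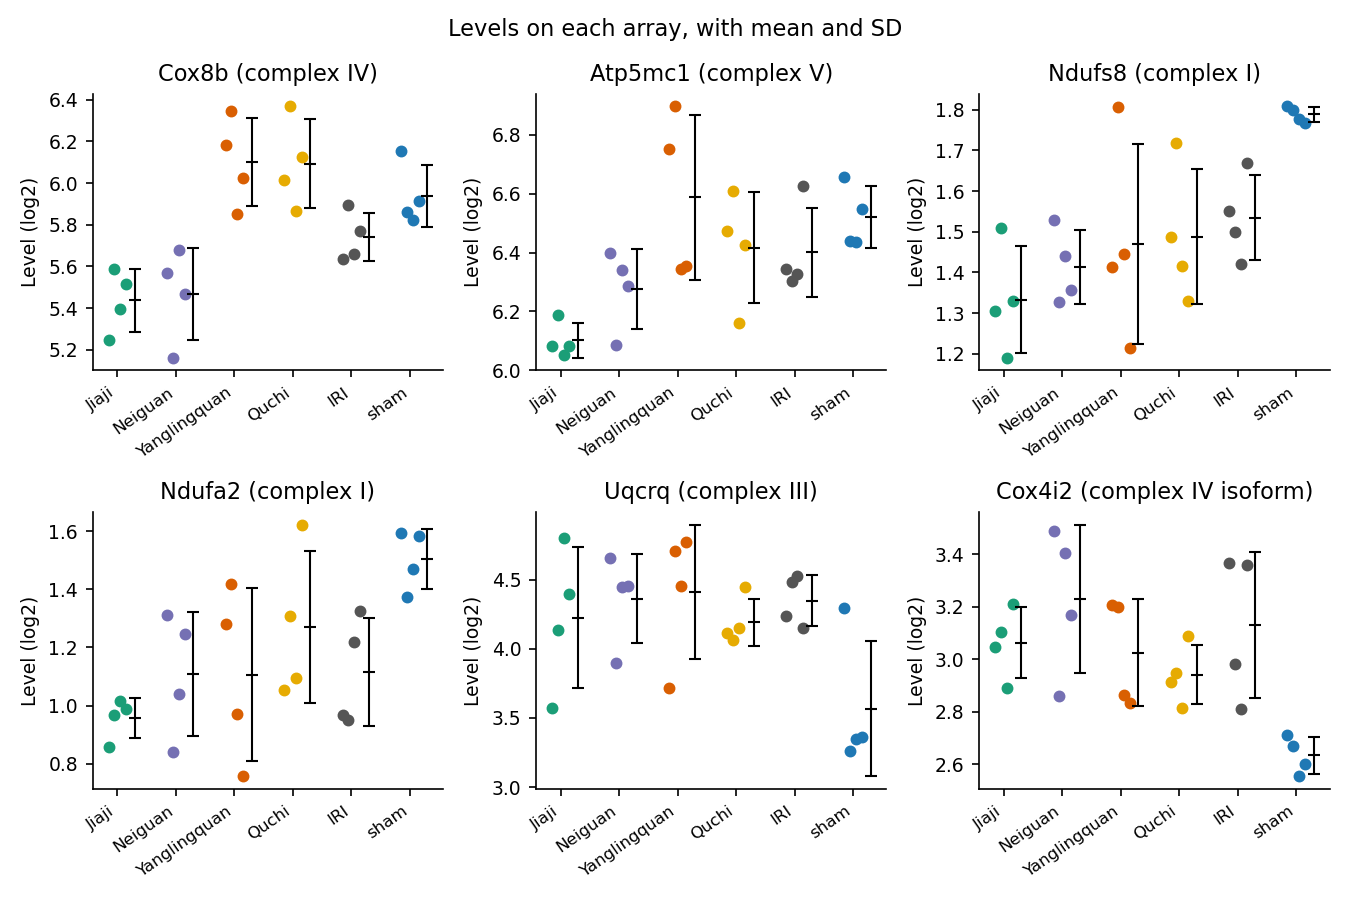
Levels of Cox8b, Atp5mc1, Ndufs8, Ndufa2, Uqcrq and Cox4i2, an isoform of subunit IV described further on, are drawn per array (log2 relative to the array's 75th percentile) in the 6 groups, with the mean and SD of each group (n = 4). Cox8b and Ndufs8 lie lower in all Jiaji and Neiguan hearts than in any sham heart, and Uqcrq is at 4.30 in sham replicate 1 and at 3.26 to 3.36 in the other sham hearts.

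The start regions of the 4 genes called under every scaling in Jiaji hearts, and of Uqcrq, are shown. These genes were chosen after their values were seen. Each run holds the 120 bases before the annotated transcription start of the gene, 5′ to 3′ on its own strand, from RefSeq on the GRCr8 rat assembly. Capitals mark a match to CCGGAAG or its reverse complement, the core bound by ETS factors such as NRF-2 (GABP), known from mammalian cells as a regulator of nuclear genes for the respiratory chain.
Cox8b, chr1:205408274-205408393, minus strand: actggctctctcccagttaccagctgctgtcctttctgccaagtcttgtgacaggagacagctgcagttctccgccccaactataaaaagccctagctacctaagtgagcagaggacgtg
Ndufs8, chr1:210573699-210573818, minus strand: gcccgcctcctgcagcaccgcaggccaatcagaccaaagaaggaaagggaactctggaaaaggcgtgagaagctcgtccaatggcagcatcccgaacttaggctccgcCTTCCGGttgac
Atp5mc1, chr10:81523346-81523465, minus strand: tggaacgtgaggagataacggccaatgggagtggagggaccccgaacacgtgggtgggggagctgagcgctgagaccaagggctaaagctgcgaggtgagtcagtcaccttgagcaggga
Ndufa2, chr18:28631885-28632004, minus strand: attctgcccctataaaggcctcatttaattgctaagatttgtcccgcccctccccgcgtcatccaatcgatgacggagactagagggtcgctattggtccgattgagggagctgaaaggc
Uqcrq, chr10:38089979-38090098, minus strand: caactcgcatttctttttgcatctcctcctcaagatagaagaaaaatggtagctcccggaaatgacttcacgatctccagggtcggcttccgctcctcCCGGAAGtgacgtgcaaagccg

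Promoters of 44 of the 49 members matched the RefSeq table, and 5 motifs were searched on both strands from 250 bases before to 50 after the start. CCGGAAG was found in 13 of the 44 (29.5%) and in 8.75% of all 33469 promoters. The YY1 motif AAGATGGC was in 10 (22.7%) against 3.17% of all, the NRF1 motif in 6 (13.6%) against 4.25%, and the ERR motif TCAAGGTCA in 1 (2.27%) against 0.433%. The SP1 motif GGGCGGGG was in 5 (11.4%) against 15.2% of all promoters, and no matches of different motifs overlapped in a member. In 18 of the 44 none of the 5 motifs was found. The shares describe these windows, and no binding was measured.

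A direct comparison of the acupoints, chosen with earlier results of these data known, gave more calls on the same Yanglingquan arrays. Against the mean of the Jiaji, Neiguan and Quchi groups, 25 members were higher in Yanglingquan hearts and none was lower, where 7.57% of all genes tested were higher, 18.1% lower and 25.6% in either direction. Ndufb8 was 0.46 higher (adjusted p 0.00139), Cox4i1 0.41 higher (adjusted p 0.00374), Cox8b 0.43 higher (adjusted p 0.00473) and Uqcrc1 0.40 higher (adjusted p 0.00465), all by limma. The median was 0.29, which was 0.075 above the class of equal brightness and 0.025 above the 50 nearest genes. On average 39.7% of those nearest genes were called higher. Ndufa2 had the lowest difference at -0.0053. The count was 39 under median scaling (41.0% of all genes called), 4 under cyclic loess (18.1%) and 0 under quantile normalization (15.9%). Without Yanglingquan replicate 1 it was 12 and without Yanglingquan replicate 2 it was 11.

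An F test across the 4 acupoint groups called 29 members, against 39.1% of all genes. They were 14 of complex I, 2 of complex II, 5 of complex III, 4 of complex IV and 4 of complex V. The share called among genes of equal brightness is not given here. Fewer members were called under quantile normalization and cyclic loess, with the counts given further on. Those scalings called 30.6% and 31.5% of all genes. Ndufb8 (adjusted p 0.000314), Cox8b (0.000323), Ndufa6 (0.00157), Ndufb3 (0.00175) and Cox7b (0.00301, all limma) were called under all 6 scalings. Ndufb3, a small membrane arm subunit of complex I, was at 3.97, 4.43, 4.18 and 4.03 in Jiaji hearts, at 4.11, 3.97, 4.26 and 4.13 in Neiguan hearts, at 4.76, 4.78, 4.66 and 4.65 in Yanglingquan hearts and at 5.32, 5.03, 4.70 and 4.40 in Quchi hearts. Yanglingquan and Jiaji values of Ndufb3 did not overlap, while Quchi replicate 4 fell below Jiaji replicate 2. Ndufa6, of the peripheral arm, was at 5.79 to 6.11 in Jiaji, 5.79 to 6.18 in Neiguan, 6.17 to 6.95 in Yanglingquan and 6.30 to 6.82 in Quchi hearts.

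Several subunits come in a muscle and a general form. Cox4i2, the form of subunit IV linked to low oxygen and outside the 49 genes, was higher in IRI than in sham hearts (0.50 ± 0.11, adjusted p 0.0111, limma). Its levels were 3.37, 2.98, 2.81 and 3.36 in IRI hearts and 2.71, 2.67, 2.56 and 2.60 in sham hearts, without overlap. It was called under 5 of 6 scalings, all but median scaling, and with any 1 array left out. Its partner Cox4i1, the general form, was not called in that comparison.

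Cox4i2 was also above sham in Neiguan hearts, by 0.60 (adjusted p 0.000792, limma), with 3.49, 2.86, 3.41 and 3.17, and under all 6 scalings. In Jiaji hearts it was 0.43 higher (adjusted p 0.00898) and in Yanglingquan hearts 0.39 higher (adjusted p 0.0277), both by limma and under 5 and 3 of the 6 scalings. Quchi hearts differed by 0.31 (adjusted p 0.0577, limma) and were not called. In each injured group all 4 values exceeded the highest sham value of 2.71.

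Of the other pairs, Cox7a2, the general form of subunit VIIa, was 0.58 higher in Yanglingquan than in IRI hearts (adjusted p 0.0101, limma) under 3 of 6 scalings, and its muscle partner Cox7a1 was not analysed here. Cox6a1, the general partner of Cox6a2, differed by 0.36 (adjusted p 0.136), and Cox8a, the general partner of Cox8b, by 0.17 (adjusted p 0.472, both limma). Ndufa4l2, the partner of Ndufa4, was not tested.

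Nuclear subunits outside the 49 genes were counted in the same way. Of 37 such genes 28 were tested, and 15 were higher in Yanglingquan than in IRI hearts and none lower, where 4.09% of all genes and 24.4% of the brightest class were called higher. Their median was 0.37, against 0.26 in their classes of equal brightness. Atp5pf and Atp5f1e of complex V were 0.59 and 0.57 higher, and Ndufb2 of complex I 0.47 higher. Atp5pf was called under 4 of the 6 scalings and Atp5f1e and Ndufb2 under 3, with lowest differences of 0.094, 0.0050 and 0.097. Ndufa11, a membrane arm subunit of complex I, was lower than in sham hearts in Jiaji (-0.45, adjusted p 0.00355) and in Neiguan (-0.38, adjusted p 0.0147), both by limma, under all 6 scalings and with any 1 array left out. None of the 26 genes listed for mitochondrial DNA had a probe tested.

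The assembly factors insert cofactors and put the complexes together, and 37 of 46 listed genes were tested. In Yanglingquan against IRI hearts none was called by limma, where 12.1% of all genes were called, and 4 had an unadjusted p under 0.05. Their median was 0.045, against 0.043 in their classes of equal brightness, which are dimmer than that of most subunits. In Jiaji against sham hearts 6 were lower and 1 was higher, where 6.55% of all genes were lower and 17.5% higher. In Neiguan against sham hearts likewise 6 were lower and 1 was higher, where 7.39% of all genes were lower and 12.5% higher. The medians were -0.30 in both, against -0.18 for Jiaji and -0.15 for Neiguan in the classes of equal brightness. Coa4, Tmem126b and Ndufaf1 were lower in both comparisons, at -0.42, -0.47 and -0.38 in Jiaji hearts and at -0.40, -0.50 and -0.44 in Neiguan hearts, with the sham arrays shared.

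Cox15, which makes the haem a of cytochrome c oxidase, was the gene that was higher in both. It was 0.82 higher than sham in Jiaji hearts (adjusted p 1.78e-06) and 0.81 higher in Neiguan hearts (adjusted p 2.09e-06), both by limma. Against IRI hearts it was 0.57 higher in Jiaji (adjusted p 0.000258) and 0.56 higher in Neiguan (adjusted p 0.000497, both limma). All 4 calls held under the 6 scalings and with any 1 array left out.

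Neighbouring pathways were mixed. In Yanglingquan against IRI hearts 4.09% of all genes were called higher, and of the 50 genes nearest each subunit gene 40.5% on average. Those nearest genes match the subunit genes in level and not the lists below. Of 17 regulators of mitochondrial gene expression, Polg2, the accessory subunit of the mitochondrial DNA polymerase, was the 1 called in Yanglingquan against IRI hearts, 0.46 higher (adjusted p 0.0199, limma) and called under all 6 scalings and in 21 of 24 fits with 1 array left out. Of 17 genes of the tricarboxylic acid cycle, 3 were higher: Idh2 by 0.51, Suclg1 by 0.43 and Fh by 0.42. Each was called under 3 of the 6 scalings, and the lowest differences were -0.075 for Idh2, -0.013 for Suclg1 and 0.046 for Fh. Of 18 tested genes for transport and import, 4 were higher, among them the ADP/ATP carrier Slc25a4 (0.55, adjusted p 0.00435) and the outer membrane pore Vdac1 (0.52, adjusted p 0.00659, both limma). Both were called under 3 of the 6 scalings, with lowest differences of 0.12 and 0.051. The mitochondrial creatine kinase Ckmt2 (0.48, adjusted p 0.0244, limma) was also called under 3 and had a lowest difference of -0.094.

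Slc25a4 was also higher than IRI in Jiaji (0.47, adjusted p 0.0117) and Neiguan hearts (0.45, adjusted p 0.0221), both by limma and under 5 and 3 of the 6 scalings. Ucp3, an uncoupling protein of muscle, was 1.82 higher in IRI than in sham hearts (adjusted p 0.0297, limma), called under all 6 scalings and in 18 of 24 fits with 1 array left out. Timm44, part of the import motor of the inner membrane, was lower in Quchi than in IRI hearts (-1.12, adjusted p 0.00666, limma) under all 6 scalings.

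Sex made no called difference in any of the 45 genes, where 0.209% of all genes were called in females against males by limma (0.0465% higher and 0.163% lower). The median difference was -0.081, with 40 of the 45 below 0, against -0.044 in the classes of equal brightness. Of the members 3 had an unadjusted p under 0.05. The injury by sex interaction called no gene at all of 12890 tested by limma, and 0 members had an unadjusted p under 0.05. With 2 animals of each sex per group this interaction was measured with little precision. The Yanglingquan medians of the members were 0.10 and 0.16 in the females and 0.34 and 0.46 in the males. Other genes of equal brightness on these arrays were at -0.011 and 0.18 in the females and at 0.28 and 0.35 in the males.

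A second probe was named for Cycs, Ndufb10, Ndufs4 and Uqcrb. For Cycs the 2 probes gave 0.34 and 0.31 in Yanglingquan against IRI hearts, for Ndufb10 0.34 and 0.17, and for Ndufs4 0.0089 and -0.028. The second probe of Uqcrb was far dimmer, with a mean level of -0.10, and gave 0.057 in place of 0.67. Against sham hearts it gave -0.15 in Yanglingquan, -0.39 in Jiaji and -0.60 in Neiguan, in place of 0.63, 0.23 and 0.20. Against IRI hearts it gave -0.18 in Jiaji and -0.39 in Neiguan, in place of 0.27 and 0.24. In Quchi hearts it gave 0.50 against IRI and 0.29 against sham, in place of 0.51 and 0.47. For Uqcrb the result therefore rests on the brighter of its probes, which was the one chosen by the rule.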

How the data were processed

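Total RNA of 24 hearts was hybridised to single-colour Agilent arrays, and the deposited scanner files hold intensity values per spot, made by the authors with Feature Extraction 11.0.1.1 per the file headers and 10.7.3.1 per the submitters' processing notes. The authors' deposited processed table is on a log2 scale with a median of 7.21 in every column; it correlated with the scanner values at r of 0.997 to 1.000 and served as an alternative. The labels do not say how it was made.

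The processed signal was taken to log2 minus each array's 75th percentile. Control spots (1377 per array) and 8733 outlier spots were left out, and spots of a probe were averaged. A probe passed if the deposited flags put it well above background on each of the 4 arrays of some group (25149 of 30367). Probes were named through RefSeq accessions (18005 named), and the brightest passing probe stood for its gene, leaving 12894 genes. No spot was saturated. Groups and sex were fitted with limma 3.58.1 in R 4.3.3 (17 residual degrees of freedom), with Benjamini-Hochberg adjustment. The scripts were tested on simulated data.

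Members, gene lists and the comparison of Yanglingquan with the other acupoints were chosen with earlier results of these data known. Named genes were, per comparison and complex, up to 4 called members of smallest p, the member furthest against the median direction, isoform pairs whatever their values, and up to 3 called genes per background list. Genes named outside this rule, such as Cox6c, Ndufs4, Ndufa9, Cycs, Atp5f1b and Sdhc, were chosen after their values were seen. Alternatives covered 5 other scalings, filters, weights, blocks and each array left out. Normexp used the median signal with an offset of 50. The comparison with the 50 nearest genes and the SP1 motif were added after seeing the data.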

Additional observations from a re-analysis of the deposited data

Results flagged for a closer look

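In 17 of 269 sets of 4 values per gene and group (6.32%), 1 array lay apart from the other 3 by Dixon's criterion, and chance sets about 1 in 20 such groups apart. Each value below is the gap to the nearest array divided by the range. IRI replicate 2 was high for Ndufa9 (0.831), Ndufb3 (0.869), Ndufs3 (0.921) and Cycs (0.904), IRI replicate 1 was low for Cox6c (0.865), and IRI replicate 4 was high for Atp5mc1 (0.872). Sham replicate 1 was high for Uqcrq (0.906), Cox6a2 (0.85), Cox6c (0.909) and Atp5f1a (0.979), and sham replicate 2 was low for Ndufs1 (0.861). Jiaji replicate 1 was low for Cox6c (0.895) and Atp5f1a (0.864), and Neiguan replicate 2 was low for Cox4i1 (0.925). Yanglingquan replicate 2 was high for Ndufs1 (0.965). Quchi replicate 3 was low for Cox5a (0.874) and Quchi replicate 4 for Atp5f1c (0.834). IRI replicate 2 and sham replicate 1 were thus high 4 times each. Without IRI replicate 2, 24 members were called in Yanglingquan and 12 in Quchi against IRI hearts, in place of 20 and 2.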

How the results depend on the processing

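Each count below is the number of the 45 members called by limma in either direction. Under quantile normalization the counts were 5 for Jiaji against IRI, 12 for Jiaji against sham, 2 for Neiguan against IRI, 11 for Neiguan against sham, 1 for Quchi against IRI, 3 for Quchi against sham, 1 for Yanglingquan against IRI, 4 for Yanglingquan against sham, 0 for Yanglingquan against the other acupoints and 7 for the F test. The authors' processed values gave 5, 12, 2, 11, 1, 3, 1, 5, 0 and 7 in that order. Medians under quantile normalization were -0.13 for Neiguan against IRI, -0.020 for Quchi against IRI, -0.049 for Quchi against sham, -0.046 for Yanglingquan against IRI, -0.058 for Yanglingquan against sham and 0.027 for Yanglingquan against the other acupoints, and with the authors' values -0.13, -0.020, -0.049, -0.046, -0.057 and 0.028.

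Median scaling gave 4 for Jiaji against IRI, 22 for Jiaji against sham, 7 for Neiguan against sham, 0 for Quchi against IRI, 0 for Quchi against sham, 39 for Yanglingquan against the other acupoints and 44 for the F test. Of all genes it called 18.4%, 53.2%, 33.6%, 4.07%, 21.8%, 41.0% and 54.5% in that order. Its medians were -0.28 for Jiaji against IRI, -0.39 for Jiaji against sham, -0.24 for Neiguan against sham and 0.51 for Yanglingquan against the other acupoints. Cyclic loess gave 3 for Jiaji against IRI, 7 for Jiaji against sham, 1 for Neiguan against IRI, 0 for Quchi against IRI, 3 for Quchi against sham, 4 for each of Yanglingquan against IRI, against sham and against the other acupoints, and 8 for the F test. Its medians were 0.019 for Quchi against IRI, -0.034 for Quchi against sham, 0.071 for Yanglingquan against IRI, 0.061 for Yanglingquan against sham and 0.087 for Yanglingquan against the other acupoints. Normexp gave 1 for Neiguan against IRI, where it called 9.75% of all genes.

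Array quality weights gave 1 for IRI against sham, 2 for Jiaji against IRI, 7 for Jiaji against sham, 1 for Neiguan against IRI, 8 for Neiguan against sham, 18 for Quchi against IRI and 16 for Quchi against sham. The scan as a random block, added after seeing the data (correlation -0.0998), gave 2, 3, 10, 1, 8, 12 and 16 for these, and 27 for Yanglingquan against sham. With only the groups compared in the fit, and so fewer arrays, the counts were 0 for Quchi against IRI, 0 for Quchi against sham, 9 for Yanglingquan against IRI and 4 for Yanglingquan against sham. The shares of all genes called were 0.248%, 13.9%, 9.24% and 6.11% in that order. The replicate numbers do not pair the rats: 17 of 60 same-numbered pairs correlated above 0.1, and 6 of 24 arrays were closest to their own number. The replicate block gave 1 for Quchi against IRI (3.07% of all genes called) and 18 for Yanglingquan against IRI (11.8%). It gave -0.067 for the injury by sex interaction over equal brightness, and moved no other count by over 1.5 times.

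With 1 array left out in turn, the counts ran from 0 to 1 for IRI against sham, 4 to 7 for Jiaji against sham, 1 to 5 for Neiguan against sham, 0 to 12 for Quchi against IRI, 1 to 12 for Quchi against sham, 10 to 24 for Yanglingquan against IRI, 5 to 19 for Yanglingquan against sham, 11 to 28 for Yanglingquan against the other acupoints and 24 to 32 for the F test. The shares of all genes called in these fits are not given here. The median of the injury by sex interaction ran from 0.015 to 0.24.

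Signs turned for genes of the Yanglingquan comparisons, under quantile normalization and in the authors' values in turn. Against IRI hearts the differences were -0.032 and -0.031 for Atp5pb, -0.022 and -0.021 for Atp5po, -0.065 and -0.064 for Cox4i1, -0.10 and -0.10 for Cox5b, -0.057 and -0.056 for Cox6a2, -0.063 and -0.062 for Sdha, and -0.081 and -0.080 for Uqcrfs1. Against sham hearts they were -0.032 and -0.032 for Atp5f1a, -0.043 and -0.041 for Atp5pb, -0.0064 and -0.0051 for Atp5po, -0.13 and -0.13 for Cox4i1, -0.073 and -0.072 for Cox5b, -0.19 and -0.18 for Cox6a2, -0.051 and -0.049 for Ndufb9, and -0.025 and -0.024 for Sdha. Against the other acupoints they were -0.040 and -0.039 for Cox6a2 and -0.050 and -0.049 for Uqcrb. The cause of these shifts was not tested.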
